A study of Mus musculus with 32 samples.

Results

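3T3-L1 adipocytes exposed for 24 h to 100 µM BCNU alone were compared with control cells of the same time. The comparison was chosen by the array titles, which named 2 BCNU arrays and 2 control arrays at 24 h, so it rested on 4 of the 32 arrays of the time course. 3T3-L1 is a mouse fibroblast line, here differentiated into lipid-storing fat cells in culture, and BCNU is 1,3-bis-(2-chloroethyl)-1-nitrosourea. The other arrays used were BCNU at 2, 4 and 8 h, 1 µM auranofin at 24 h, co-treatment with 1 µM auranofin and 100 µM BCNU at 24 h, untreated cells at 0 h and the controls of 4 and 8 h, each with 2 arrays. No group carried a genetic change. The vehicle given to control cells was not stated in the labels, and no control was labelled for 2 h. The labels do not say whether the replicates came from separate cultures, so p-values measure the spread between these arrays, which may be technical. All cells belonged to 1 line, and values are log2 expression levels unless another scale is named.

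Glutathione reductase, encoded by Gsr, uses NADPH to return oxidised glutathione to its reduced form, and BCNU inhibits this enzyme. BCNU is also a chloroethylating agent that alkylates DNA and can crosslink its strands, which is why it is used in chemotherapy. Oxidants and electrophiles that modify the sensor KEAP1 release the transcription factor NRF2, which binds antioxidant response elements and raises genes for glutathione synthesis, NADPH supply and drug export. Auranofin inhibits thioredoxin reductase, the enzyme of the parallel thiol system.

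The 2 BCNU arrays correlated across genes with r = 0.995 and the 2 control arrays with r = 0.995, within the range of 0.993 to 0.995 over the 16 groups. All 29 measured of 32 adipocyte markers lay above 2.33, the highest lower quartile of any array, taken here as the level of background, and 24 lay above 8. Their summed levels were 291.5 and 288.1 in BCNU-treated cells, against 290.3 and 287.6 in control cells, and the groups overlapped. None of the 14 leukocyte or 12 endothelial markers and 1 of 13 skeletal muscle markers averaged above 8. Above the level of background lay 8 of the leukocyte, 5 of the endothelial and 9 of the skeletal muscle markers. Of the 25 measured preadipocyte and fibroblast markers, 23 lay above background and 11 above 8. Preadipocyte and fibroblast markers summed to 176.6 and 179.4 in BCNU-treated cells and to 179.4 and 180.9 in control cells, again with overlap. In bulk samples fewer cells of a type and less RNA per cell cannot be told apart.

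Few genes separated BCNU-treated from control cells at 24 h. Once predicted and locus-style symbols were left out, Ogn fell most among the called genes, to 0.355 of its control level. It encodes the matrix proteoglycan osteoglycin. Mcm5, a subunit of the replicative helicase, lay 2.35-fold above control. In limma's test 41 of 21506 genes, or 0.191%, were differentially-expressed, that is, called at an adjusted p under 0.05 and an absolute log2 difference over 0.5. Of these, 26 (0.121% of all genes) were higher and 15 (0.0697%) lower in BCNU-treated cells, with log2 differences of 0.50 to 1.64 in size. In all 41 both BCNU arrays lay outside the range of the control arrays of 24 h, and in 40 they also lay outside the range of the 8 untreated and control arrays of all times, a separation seen in 8.89% of all genes. The estimate of spread came from all 32 arrays. Fitted on the 8 arrays of 24 h or on the 4 arrays alone, limma called 0 genes, with 1606 and 1567 genes at an unadjusted p under 0.05, against 1672 in the fit of all arrays. On leaving out 1 array, 15 of the 41 calls were kept without BCNU replicate 1, 5 without BCNU replicate 2, 10 without control replicate 1 and 7 without control replicate 2. The 5 genes called in all 4 of these fits were Ogn, Dcn, Ncam1, Mgst2 and 1700096K18Rik, the last of which is named for this reason alone, after its values were seen.

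**Figure D1:**
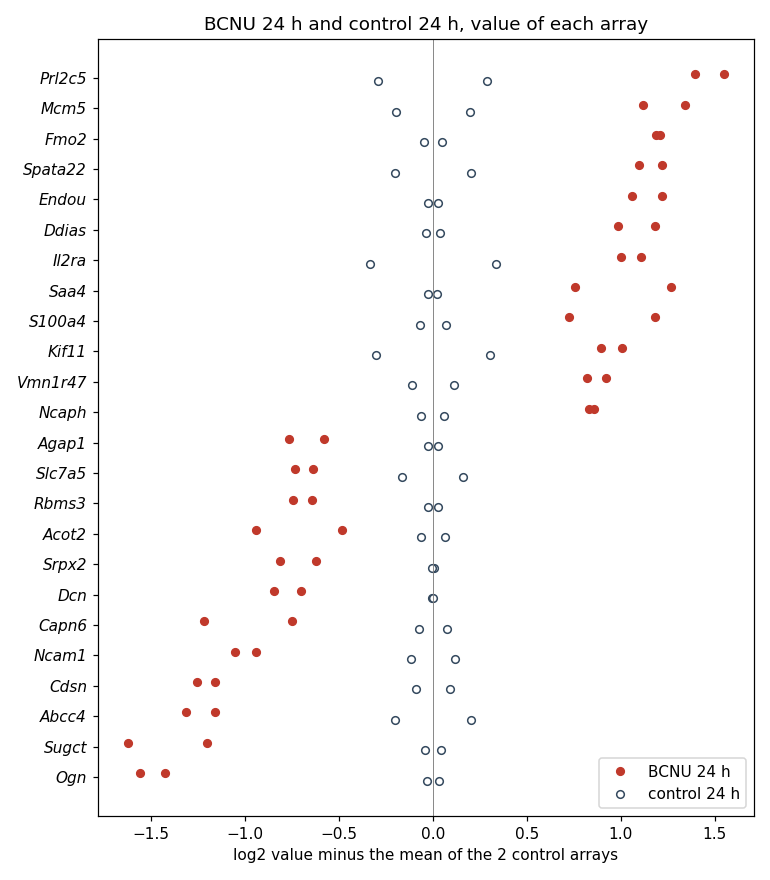
Log2 value of each array minus the mean of the 2 control arrays, for 24 called genes, the 12 that rose most and the 12 that fell most after 24 h of BCNU once predicted and locus-style symbols were left out. Filled points are BCNU arrays and open points control arrays. Genes were shown only if both BCNU arrays lay outside both control arrays, so this separation was fixed by the choice. The differences run from Prl2c5 (1.47 ± 0.29) to Ogn (-1.49 ± 0.12).

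Ogn, Dcn, Ncam1, Srpx2 and Cdsn, whose products are secreted or sit at the cell surface, were among the 15 genes that fell. Ogn lay at 9.05 and 8.92 in BCNU-treated cells, against 10.51 and 10.44 in control cells, a log2 difference of -1.49 ± 0.12 (adjusted p = 2.91e-06; 9.45e-05 to 0.000365 with 1 array left out). The lowest of the 8 untreated and control arrays held 10.44, well above both BCNU arrays. Decorin (Dcn), a related small leucine-rich proteoglycan that binds collagen, had values of 9.94 and 10.08 in BCNU-treated cells, against 10.78 and 10.79 in control cells (-0.77 ± 0.11, adjusted p = 0.00230; 0.0156 to 0.0431 with 1 array left out). The adhesion molecule gene Ncam1 stood at 7.77 and 7.65 in BCNU-treated cells, against 8.59 and 8.82 in control cells (-0.996 ± 0.12, adjusted p = 0.00140; 0.00363 to 0.0344 with 1 array left out). These 3 genes were called whichever array was left out. Srpx2, a secreted sushi-repeat protein, fell by 0.72 ± 0.13, and corneodesmosin (Cdsn), an adhesion protein known from skin, fell by 1.20 ± 0.17. Srpx2 lost its call without any 1 of the 4 arrays (0.0667 to 0.288), and Cdsn without BCNU replicate 2 or control replicate 2 (0.0183 to 0.0652).

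Of the 39 measured extracellular matrix genes, 2 were called lower, Ogn and Dcn, and 0 higher. Their median log2 difference was -0.03, against -0.01 over all genes, and 23 had a negative and 16 a positive value. That median was -0.063 to -0.02 with 1 array left out and -0.069 against all 8 untreated and control arrays. Of the 25 preadipocyte and fibroblast markers, 1 was called higher and 1 lower (median -0.03). The lower one was Dcn. The higher one was S100a4, a calcium-binding protein also called fibroblast-specific protein, at 8.29 and 8.75 in BCNU-treated cells, against 7.63 and 7.50 in control cells (0.95 ± 0.16, adjusted p = 0.0169). It kept its call without BCNU replicate 1 and lost it without any other of the 4 arrays (0.0177 to 0.279).

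The transporters Abcc4 and Slc7a5 and the metabolic enzymes Sugct and Acot2 also fell, as did Capn6, Rbms3 and Agap1. Abcc4, an exporter of organic anions and drug conjugates, lay at 6.59 and 6.44 in BCNU-treated cells, against 7.55 and 7.95 in control cells (-1.24 ± 0.20, adjusted p = 0.0101). It was called without BCNU replicate 1 and without control replicate 1, but not without BCNU replicate 2 or control replicate 2 (0.0183 to 0.163 over the 4). Slc7a5, the light chain of a large neutral amino acid transporter, fell by 0.69 ± 0.14. Acot2, a mitochondrial acyl-CoA thioesterase, fell by 0.71 ± 0.14, and Sugct, a mitochondrial CoA transferase of glutarate metabolism, by 1.41 ± 0.26. Capn6, a calpain family member without protease activity, fell by 0.98 ± 0.16, the RNA-binding protein gene Rbms3 by 0.69 ± 0.11 and Agap1, an Arf GTPase-activating protein, by 0.67 ± 0.13. Adjusted p of these 6 genes lay between 0.00901 and 0.0438. Sugct, Slc7a5 and Agap1 lost the call without any 1 of the 4 arrays, with an adjusted p of up to 0.483. Capn6, Acot2 and Rbms3 lost it without BCNU replicate 2, control replicate 1 or control replicate 2, with an adjusted p of up to 0.483.

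Mcm5, Kif11, Ncaph and Ddias were among the 26 genes that rose; Mcm5 and Kif11 are on the list of DNA replication and mitosis, and Ncaph and Ddias on none. Mcm5 had values of 5.60 and 5.38 in BCNU-treated cells, against 4.06 and 4.45 in control cells (1.23 ± 0.24, adjusted p = 0.0385). Kif11, the kinesin that pushes spindle poles apart, had values of 5.98 and 5.87 in BCNU-treated cells, against 4.67 and 5.27 in control cells (0.95 ± 0.16, adjusted p = 0.0143). Both BCNU arrays lay above both control arrays in each gene. The control arrays of 24 h were low for Kif11, whose highest untreated or control array of any time held 5.75, just below the BCNU arrays. The condensin subunit gene Ncaph rose by 0.84 ± 0.17, and Ddias, a DNA damage-induced suppressor of apoptosis, by 1.08 ± 0.20. Mcm5, Ncaph and Ddias lost their calls without any 1 of the 4 arrays (adjusted p of up to 0.279), and Kif11 kept its call only without control replicate 2 (0.00257 to 0.133). With all 8 untreated and control arrays as the reference, an alternative chosen after seeing the data, Mcm5 was still called and Kif11 (0.57), Ncaph and Ddias were not.

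Of the 32 measured genes of DNA replication and mitosis, 2 were called higher, Mcm5 and Kif11, and 0 lower. The median of the list was 0.39, and 31 of its 32 members had a positive value, from -0.08 (Cdc20) to 1.23 (Mcm5). That median was 0.28 to 0.51 with 1 array left out and 0.22 against all 8 untreated and control arrays. Against the same 24 h controls it was 0.34 with auranofin and 0.21 with both drugs, so the shift was not particular to BCNU. Between BCNU and auranofin 0 of the 32 genes were called. Mki67, the proliferation marker, had values of 6.75 and 6.66 in BCNU-treated cells, against 5.74 and 5.73 in control cells (0.98 ± 0.23, adjusted p = 0.128), which did not pass the threshold. The 15 measured tubulin genes had a median of 0.32 with 0 called, and their median was 0.33 with auranofin and 0.16 with both drugs. Of 26 DNA repair and crosslink genes (median 0.07), 25 p53 targets (0.07) and 15 replication-dependent histones (0.13), 0 were called. The p53 target Mdm2, a ubiquitin ligase for p53, had values of 12.49 and 12.37 in BCNU-treated cells, against 12.47 and 12.37 in control cells. Mgmt, which removes alkyl groups from guanine, had values of 7.02 and 6.47 in BCNU-treated cells, against 6.85 and 6.84 in control cells (-0.10 ± 0.16, adjusted p = 0.951). Cdkn1a was not analysed here.

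**Figure D2:**
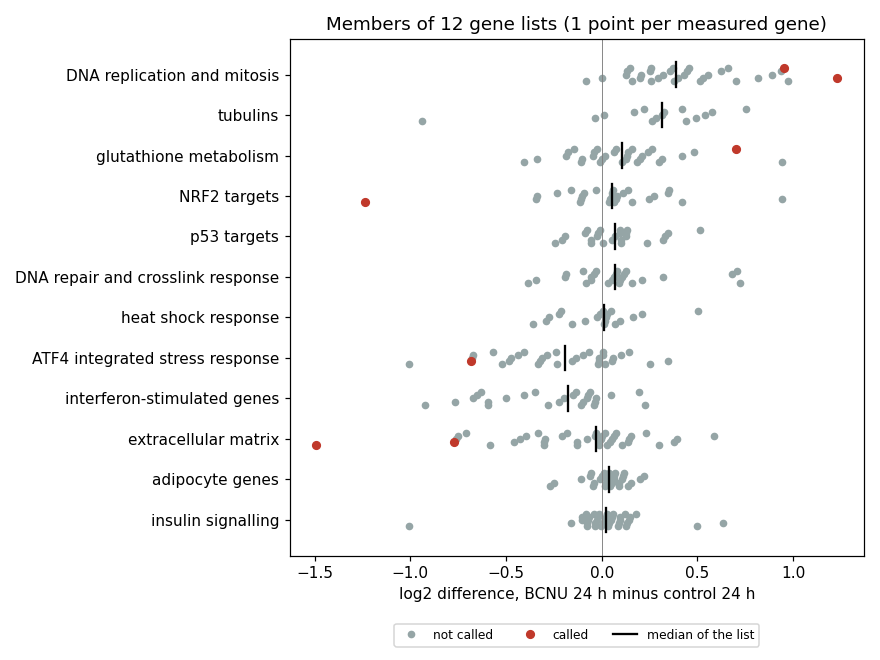
Log2 difference between BCNU 24 h and control 24 h for each measured member of 12 gene lists (1 point per gene). Red points are called genes and vertical bars the medians of the lists. The medians run from -0.19 for the ATF4 integrated stress response to 0.39 for DNA replication and mitosis.

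The other large rises were of mixed function. Prl2c5, a proliferin of the prolactin family, rose by 1.47 ± 0.29; near-identical copies of this family share sequence, so the probe set may not separate them. Fmo2, a flavin-containing monooxygenase, rose by 1.20 ± 0.21, with values of 4.60 and 4.58 in BCNU-treated cells, against 3.44 and 3.35 in control cells. Spata22, known from meiotic recombination, rose by 1.16 ± 0.18, the endoribonuclease gene Endou by 1.14 ± 0.20 and the interleukin 2 receptor chain gene Il2ra by 1.06 ± 0.21. Saa4, a serum amyloid A protein, and the vomeronasal receptor gene Vmn1r47 were called with differences of 1.01 ± 0.21 and 0.87 ± 0.18, but their control means of 2.27 and 1.58 lay at the level of background, so these sizes are not well measured. Prl2c5, Fmo2, Endou and Vmn1r47 lost the call without any 1 of the 4 arrays, Il2ra without all but control replicate 1, Saa4 without all but BCNU replicate 1, and Spata22 without BCNU replicate 2 or control replicate 2. The highest adjusted p among these 7 genes on leaving out an array was 0.479.

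Few glutathione and NRF2 genes passed the test at 24 h. Of 31 measured genes of glutathione metabolism 1 was called higher, Mgst2, a microsomal glutathione transferase, with values of 7.10 and 7.09 in BCNU-treated cells, against 6.31 and 6.47 in control cells (0.70 ± 0.09, adjusted p = 0.00220; 0.0141 to 0.0449 with 1 array left out). Gsr, the enzyme that BCNU inhibits, had values of 10.15 and 10.05 in BCNU-treated cells, against 10.14 and 10.26 in control cells (-0.10 ± 0.10, adjusted p = 0.893), and the groups overlapped. The subunits of glutamate-cysteine ligase, which makes the first step of glutathione synthesis, had differences of -0.34 ± 0.10 (Gclc, adjusted p = 0.261) and 0.14 ± 0.10 (Gclm, adjusted p = 0.829). Glutathione synthetase (Gss) differed by -0.04 ± 0.16, and Txnrd1, the cytosolic thioredoxin reductase, by -0.03 ± 0.11. Of the 27 measured NRF2 targets, 0 were called higher and 1 lower, Abcc4, and 10 had a negative value. Their median of 0.05 was 0.019 to 0.075 with 1 array left out.

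The promoters of 3 NRF2 targets and of Mcm5 are shown as examples, and all 4 hold a match: Abcc4 was the 1 NRF2 target called lower at 24 h, Gclm and Srxn1 were not called at 24 h but had a lower effect than at 8 h, and Mcm5 rose most among the genes of cell division. The entries of Nqo1, Slc7a11, Cbr3 and Sqstm1, which also had a lower effect at 24 h than at 8 h, held no match to the first motif. Hmox1, Gclc, Gsr and Abcc1, with a lower effect too, had no entry. The match shown for Srxn1 lies downstream of the start site, at position 28. The sequences are RefSeq entries of GRCm38.p6, 300 bases around the start of a gene, written 5′ to 3′ along the gene. Abcc4 lies at chr14:118706170-118706469, minus strand, which is the most upstream of its entries that hold the motif, Gclm at chr3:122245307-122245606, plus strand, Srxn1 at chr2:152105274-152105573, plus strand and Mcm5 at chr8:75109259-75109558, plus strand. Capitals mark the core of the antioxidant response element (TGACNNNGC on either strand) in the first 3 and an E2F motif (TTTGGCGC on either strand) in Mcm5; E2F factors drive genes of DNA replication. The first motif can overlap an AP-1 motif (TGACTCA).
Abcc4: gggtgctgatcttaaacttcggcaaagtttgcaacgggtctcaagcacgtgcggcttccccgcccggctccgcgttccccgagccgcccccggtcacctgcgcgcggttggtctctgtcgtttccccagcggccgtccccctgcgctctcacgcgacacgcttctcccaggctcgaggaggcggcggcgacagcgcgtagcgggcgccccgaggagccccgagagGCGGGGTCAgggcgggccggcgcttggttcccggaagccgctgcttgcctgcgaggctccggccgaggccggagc
Gclm: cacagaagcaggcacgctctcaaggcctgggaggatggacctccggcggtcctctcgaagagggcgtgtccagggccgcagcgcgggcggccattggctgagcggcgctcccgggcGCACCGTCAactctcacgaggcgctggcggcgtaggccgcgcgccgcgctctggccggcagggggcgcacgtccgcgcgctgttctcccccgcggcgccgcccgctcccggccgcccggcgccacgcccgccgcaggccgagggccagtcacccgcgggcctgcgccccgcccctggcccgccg
Srxn1: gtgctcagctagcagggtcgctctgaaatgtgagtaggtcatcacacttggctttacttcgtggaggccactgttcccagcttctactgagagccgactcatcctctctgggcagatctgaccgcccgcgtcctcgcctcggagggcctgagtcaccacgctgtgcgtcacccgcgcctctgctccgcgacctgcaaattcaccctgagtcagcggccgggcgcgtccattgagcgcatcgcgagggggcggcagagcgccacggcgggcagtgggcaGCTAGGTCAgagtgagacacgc
Mcm5: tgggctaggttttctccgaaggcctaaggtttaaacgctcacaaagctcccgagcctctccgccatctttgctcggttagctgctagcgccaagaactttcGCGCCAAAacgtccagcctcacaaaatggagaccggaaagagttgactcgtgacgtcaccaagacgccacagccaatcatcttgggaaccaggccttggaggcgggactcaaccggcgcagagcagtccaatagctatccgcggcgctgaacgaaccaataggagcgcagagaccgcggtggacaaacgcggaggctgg
The element's core was found in 12.4% of all 32851 promoters of this length, and in 8 of the 21 NRF2 targets with an entry (9 of 29 promoters). Among genes called against control it was found in 4 of 36 promoters (11.1%), near the share of all promoters. The E2F motif was found in 0.514% of all promoters and in 4 of the 28 genes of DNA replication and mitosis with an entry. A match describes these letters and no measured binding.

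The earlier arrays allowed the effect of BCNU at 24 h to be set against its effect at 8 h. The difference between the effects was tested in the same fit, each with the controls of its own time, and shares its 24 h arrays with the comparison above. It was called in 105 genes, of which 46 (0.214% of all genes) had a higher and 59 (0.274%) a lower effect at 24 h. Of the 27 NRF2 targets 13 had a lower effect and 0 a higher one, with a median difference of -0.80, against -0.00253 over all genes. Hmox1, whose product haem oxygenase 1 breaks down haem, held 12.77 and 12.81 in BCNU-treated cells at 8 h, against 10.43 and 9.95 in control cells, and 10.74 and 10.47 at 24 h, against 10.25 and 10.26 in control cells. Its effect was lower at 24 h by 2.25 ± 0.23 (adjusted p = 5.33e-05). Its BCNU arrays at 24 h still lay above their controls, but the difference of 0.35 ± 0.16 did not pass the threshold (adjusted p = 0.625).

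The other NRF2 targets called in this test covered antioxidant repair, glutathione synthesis, NADPH supply and export. Srxn1, the sulfiredoxin that repairs peroxiredoxins, held 9.05 and 8.70 in BCNU-treated cells at 8 h, against 7.08 and 7.04 in control cells, and 6.89 and 6.77 at 24 h, against 7.24 and 7.10, so that its BCNU arrays changed from above to below their controls (difference of effects -2.16 ± 0.22, adjusted p = 5.33e-05). The 24 h difference of Srxn1 itself was not called (-0.34 ± 0.16, adjusted p = 0.623). The cystine importer gene Slc7a11 differed by -1.81 ± 0.37, the carbonyl reductase gene Cbr3 by -1.81 ± 0.21, Gclc by -1.72 ± 0.14, the quinone reductase gene Nqo1 by -1.64 ± 0.21, Gclm by -1.34 ± 0.15 and Txnrd1 by -1.27 ± 0.16. The exporter gene Abcc1 differed by -0.99 ± 0.15, Pgd of the pentose phosphate pathway by -0.88 ± 0.12, the autophagy receptor gene Sqstm1 by -0.81 ± 0.15 and Gsr by -0.80 ± 0.15. Cbr3, Abcc1, Pgd and Sqstm1 are named here because the list's count is given in full, after their values were seen. Of these 13, 10 were called whichever of the 8 arrays was left out. Slc7a11 was called only without control 24 h replicate 1 (adjusted p 0.00757 to 0.150 over the 8), Gsr lost its call without 5 of the arrays (0.0236 to 0.0835) and Sqstm1 without 4 (0.0118 to 0.0842).

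Abcc4, like Srxn1, lay above its controls at 8 h and below them at 24 h. Of the NRF2 targets only Abcc4 was called against control at 24 h. It held 8.33 and 8.36 in BCNU-treated cells at 8 h, against 7.41 and 7.40 in control cells, and 6.59 and 6.44 at 24 h, against 7.55 and 7.95. Its effect was lower at 24 h by 2.17 ± 0.28 (adjusted p = 0.000515; 0.000728 to 0.00752 with 1 array left out). Both BCNU arrays of 24 h lay below the lowest of the 8 untreated and control arrays, 7.12. Across the list the median of the NRF2 targets against control was 0.12 at 2 h, 0.48 at 4 h, 0.80 at 8 h and 0.05 at 24 h, where the 2 h value was set against untreated cells at 0 h.

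**Figure D3:**
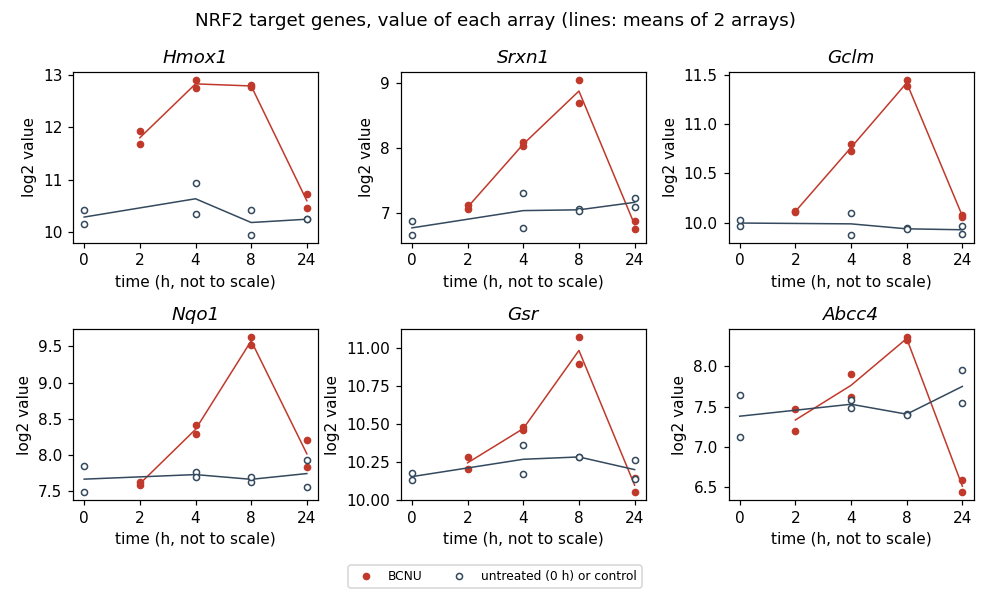
Log2 values of 6 NRF2 target genes in each array of BCNU-treated cells (filled points) and of untreated (0 h) or control cells (open points), with lines through the means of 2 arrays. The BCNU arrays of Hmox1, Srxn1, Gclm, Nqo1, Gsr and Abcc4 lie above their controls at 8 h, and those of Abcc4 (6.59 and 6.44) and Srxn1 lie below them at 24 h.

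Some genes of cell division and the cytoskeleton had a higher effect at 24 h than at 8 h. Mki67 held 5.05 and 5.48 in BCNU-treated cells at 8 h, against 6.74 and 6.31 in control cells, and 6.75 and 6.66 at 24 h, against 5.74 and 5.73. Its effect was higher at 24 h by 2.23 ± 0.33 (adjusted p = 0.00250), and here too the controls of 24 h were the lowest of the series, since those of 0 h held 6.32 and 6.36 and those of 4 h 6.39 and 6.60. The BCNU arrays of 24 h therefore lay above the controls of their own time and among or just above those of earlier times. Kif11 differed by 1.56 ± 0.23 (adjusted p = 0.00189), and the cyclin gene Ccna2, named after its values were seen, by 1.40 ± 0.26. These 3 of 32 genes of DNA replication and mitosis had a higher effect at 24 h and 0 a lower one (median 0.68). Over all genes the shares were 0.214% and 0.274%. The tubulin gene Tuba1a, which shares much sequence with its paralogs so that its probe set may not separate them, held 5.73 and 6.03 in BCNU-treated cells at 8 h, against 7.37 and 7.21 in control cells, and 7.57 and 7.41 at 24 h, against 7.31 and 7.01 (1.73 ± 0.23, adjusted p = 0.000532). Tubb5, the other of 2 tubulin genes called and named after its values were seen, differed by 1.01 ± 0.12. Mki67, Kif11, Tuba1a and Tubb5 were called whichever array was left out, while Ccna2 lost the call without 5 of the 8 arrays (0.00739 to 0.0912).

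Tlr8, an endosomal sensor of single-stranded RNA, had the next largest higher effect (1.52 ± 0.32, adjusted p = 0.0381), but was called on leaving out only 1 of the 8 arrays, control 24 h replicate 1 (0.0356 to 0.183). Among the genes named at 24 h, Fmo2 (1.43 ± 0.30), Spata22 (1.48 ± 0.26) and S100a4 (1.13 ± 0.23) had a higher effect at 24 h than at 8 h, and Ogn (-0.84 ± 0.17) and Cdsn (-1.13 ± 0.24) a lower one. The calls for Fmo2, Ogn and Cdsn were lost without any 1 of the 8 arrays (adjusted p of up to 0.161), that for S100a4 without all but BCNU 24 h replicate 1 (0.0186 to 0.167), and that for Spata22 without 3 arrays (0.00258 to 0.0719). Dcn and Ncam1 differed by -0.12 ± 0.15 (adjusted p = 0.859) and -0.28 ± 0.18 (adjusted p = 0.631), and their BCNU arrays lay below control at both times. For Dcn these held 10.28 and 10.33 at 8 h, against 10.92 and 10.99 in control cells, and for Ncam1 7.94 and 7.96, against 8.65 and 8.68.

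**Figure D4:**
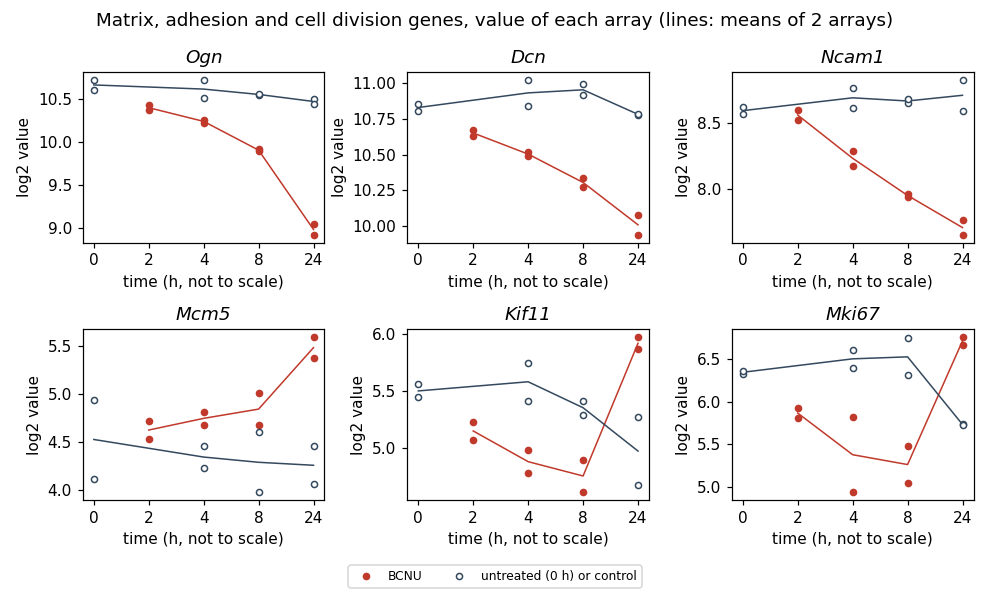
Log2 values of Ogn, Dcn, Ncam1, Mcm5, Kif11 and Mki67 in each array of BCNU-treated cells (filled points) and of untreated (0 h) or control cells (open points), with lines through the means of 2 arrays. Ogn in BCNU-treated cells lies at 9.90 and 9.91 at 8 h and 9.05 and 8.92 at 24 h, and the controls of Kif11 and Mki67 are at their lowest at 24 h.

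Few genes of other stress programmes passed the test at 24 h. Of 20 heat shock genes 0 were called against control (median 0.01), and 3 had a lower effect at 24 h than at 8 h (median -0.48). A lower effect was called in 0.274% of all genes. Hspa1a, an inducible HSP70 that its near-identical copy Hspa1b may not be told apart from, had values of 3.02 and 2.42 in BCNU-treated cells, against 2.17 and 2.27 in control cells, close to the level of background. Of 32 genes of the ATF4 integrated stress response 1 was called lower, Slc7a5, and 23 had a negative value (median -0.19; -0.23 to -0.11 with 1 array left out, nearest to 0 without BCNU replicate 2). Of 22 genes of the ER unfolded protein response (-0.05) and 32 immediate early genes (-0.01), 0 were called. The stress-induced transcription factor gene Atf3 differed by -0.02 ± 0.23 and the immediate early gene Egr1 by 0.24 ± 0.18. The 26 measured interferon-stimulated genes had a median of -0.17, with 23 negative values and 0 called. That median was -0.34 without BCNU replicate 2, so its size depended on a single array.

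Genes of the fat cell and of insulin action did not pass the test. Of 29 adipocyte genes (median 0.04), 37 insulin signalling genes (0.02), 21 genes of fatty acid and triglyceride synthesis (-0.09), 19 of cholesterol synthesis (-0.12), 20 of glycolysis and glucose transport (0.00172) and 37 of the respiratory chain (0.08), 0 were called. Adiponectin (Adipoq) differed by 0.12 ± 0.09, the fatty acid-binding protein gene Fabp4 by 0.06 ± 0.09 and Pparg, the master regulator of adipocyte differentiation, by 0.04 ± 0.08. Slc2a4, which encodes the insulin-responsive glucose transporter GLUT4, had values of 9.86 and 9.86 in BCNU-treated cells, against 9.90 and 9.90 in control cells (-0.04 ± 0.09). The insulin receptor gene Insr differed by 0.09 ± 0.10 and its substrate Irs1 by 0.13 ± 0.16. With 2 arrays a group and a median SE of 0.173 over all genes, differences of that size could not be seen. In total 8 of the 711 measured genes of the 31 lists were called, where 41 of all 21506 genes (0.191%) were called. The lists were chosen with earlier results of these data known, so no enrichment can be read from these shares.

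At 24 h BCNU-treated cells were compared directly with cells given auranofin for the same time. The drugs differ in structure and target, and were given at 100 µM and 1 µM, so doses were not matched. NRF2 targets were lower with BCNU than with auranofin: 20 of 27 were called lower and 0 higher (median -0.87), where 1.34% of all genes were called lower and 0.818% higher, 289 and 176 genes. Against control, the median of these targets was 0.05 with BCNU and 0.96 with auranofin. Abcc4 held 6.59 and 6.44 in BCNU-treated cells, against 9.69 and 9.37 in auranofin-treated cells (-3.02 ± 0.20, adjusted p = 2.92e-08), with control cells between them at 7.55 and 7.95. Nqo1 held 8.20 and 7.83, against 10.62 and 10.35 (-2.47 ± 0.15, adjusted p = 1.75e-08). Hmox1 held 10.74 and 10.47, against 12.75 and 12.70 (-2.12 ± 0.16, adjusted p = 1.81e-07). P2rx7, an ATP-gated ion channel gene, held 3.17 and 2.77, against 4.81 and 5.19 (-2.03 ± 0.23). Of the 20 NRF2 targets, 18 were called whichever of the 4 arrays was left out. The exceptions were Slc7a11 without auranofin replicate 1 (0.0608) and Gstm1, which was called only without auranofin replicate 1 (0.0209 to 0.163) and is named after its values were seen.

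Other genes were higher with BCNU than with auranofin. Haptoglobin (Hp), an acute-phase protein that adipocytes secrete, held 11.88 and 11.79 in BCNU-treated cells, against 9.75 and 10.49 in auranofin-treated cells (1.72 ± 0.16, adjusted p = 1.75e-06), with 11.27 and 11.07 in control cells. Npas2, a transcription factor of the circadian clock, held 7.56 and 7.79, against 5.96 and 6.46 (1.46 ± 0.18, adjusted p = 6.82e-05). The retinol dehydrogenase gene Rdh12 differed by 1.45 ± 0.21, and the interferon-induced Rtp4, a chaperone of receptor transport, by 1.88 ± 0.41. Rtp4 lost its call without BCNU replicate 2 or auranofin replicate 1 (0.0418 to 0.147), and the other 3 were called whichever array was left out. Of 17 clock genes 2 were called higher and 4 lower, and of 20 heat shock genes 0 higher and 7 lower. Over all genes 0.818% were called higher and 1.34% lower. Dcn and Ncam1 differed between the drugs by -0.09 ± 0.11 and -0.19 ± 0.12 (adjusted p = 0.819 and 0.586), and Mcm5 by -0.08 ± 0.24 (0.949). Ogn differed by -0.49 ± 0.12 (adjusted p = 0.0289), short of the minimum difference of 0.5.

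The last comparison set BCNU alone against co-treatment with auranofin and BCNU at 24 h, with BCNU at the same dose in both. It called 840 genes higher with BCNU alone (3.91%) and 943 lower (4.38%). All 4 comparisons share the BCNU arrays of 24 h, so their values are not independent. Preadipocyte and fibroblast markers were higher with BCNU alone in 14 of 25 cases and lower in 0 (median 1.11), and extracellular matrix genes in 26 and 2 of 39 (median 0.82). Against control, the median of the preadipocyte and fibroblast markers was -0.03 with BCNU alone and -0.96 with both drugs. For the matrix genes it was -0.03 and -0.95, so BCNU alone lay near control and the co-treated cells below it. Ogn held 9.05 and 8.92 in cells given BCNU alone, against 6.90 and 6.75 in co-treated cells (2.16 ± 0.12, adjusted p = 1.18e-10), and Dcn 9.94 and 10.08, against 8.24 and 8.07 (1.85 ± 0.11). Markers of other cell types were also called: 5 of 29 adipocyte genes were higher and 0 lower with BCNU alone, 1 of 14 leukocyte markers was higher and 4 lower, and 1 of 12 endothelial markers was lower and 0 higher. The macrophage marker Cd68, named after its values were seen, held 4.96 and 4.79 with BCNU alone, against 7.58 and 7.55 in co-treated cells. The endothelial marker Pecam1, named likewise, held 3.78 and 3.71, against 7.13 and 6.38. Cd68 (-2.69) and Pecam1 (-3.01) had the most negative differences of their lists. Of the leukocyte markers 6 had a positive and 8 a negative value, up to 1.23 (Lyz2). Among the endothelial markers 5 were positive and 7 negative, up to 0.58 (Erg). The sums of these lists are therefore not shifts of every member. Summed levels of the leukocyte list were 44.1 and 41.5 with BCNU alone and 48.5 and 48.5 in co-treated cells, and those of the endothelial list 28.1 and 27.6 with BCNU alone and 31.5 and 30.5 in co-treated cells. For the preadipocyte and fibroblast list they were 176.6 and 179.4 with BCNU alone and 146.7 and 147.7 in co-treated cells, and for the adipocyte list 291.5 and 288.1 with BCNU alone and 280.9 and 280.7 in co-treated cells. None of the leukocyte or endothelial markers averaged above 8 in co-treated cells, and their part in the differences was not tested. The largest differences in favour of BCNU alone were those of Sfrp2, a secreted regulator of Wnt signalling (4.00 ± 0.29), the growth factor pleiotrophin (Ptn, 3.25 ± 0.13), the chloride channel accessory gene Clca3a1 (3.10 ± 0.23) and dermatopontin (Dpt, 3.07 ± 0.17), a matrix protein. Sfrp2 itself differed from control by -0.79 with BCNU alone and was not called.

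Many heat shock and immediate early genes were lower with BCNU alone than with both drugs. Hspa1a held 3.02 and 2.42 in cells given BCNU alone, against 9.78 and 9.48 in co-treated cells (adjusted p = 1.46e-10); the values with BCNU alone lie close to the level of background, so no size is given. Of the 20 heat shock genes 18 were called lower and 0 higher, where 4.38% of all genes were called lower and 3.91% higher. P2rx7 differed by -5.41 ± 0.23, Atf3 by -4.47 ± 0.23 and the cornified envelope gene Sprr1a by -4.00 ± 0.26. Immediate early genes were lower in 26 of 32 cases and higher in 0 (median -1.32). Against control, the median of the immediate early genes was -0.01 with BCNU alone and 1.38 with both drugs. That of the heat shock genes was 0.01 and 1.21, and that of the NRF2 targets 0.05 and 0.93. NRF2 targets were lower in 20 of 27 and higher in 0 (median -0.91), and 19 of the 20 were called whichever of the 4 arrays was left out. The exception, Trim16, a ubiquitin ligase gene named for this reason after its values were seen, lost its call without BCNU replicate 2 or co-treatment replicate 2 (0.0197 to 0.145). Txnrd1 held 8.21 and 8.30, against 9.77 and 9.92 (-1.59 ± 0.11, adjusted p = 3.19e-09). The 8 genes with the largest differences were called whichever of the 4 arrays was left out.

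**Figure D5:**
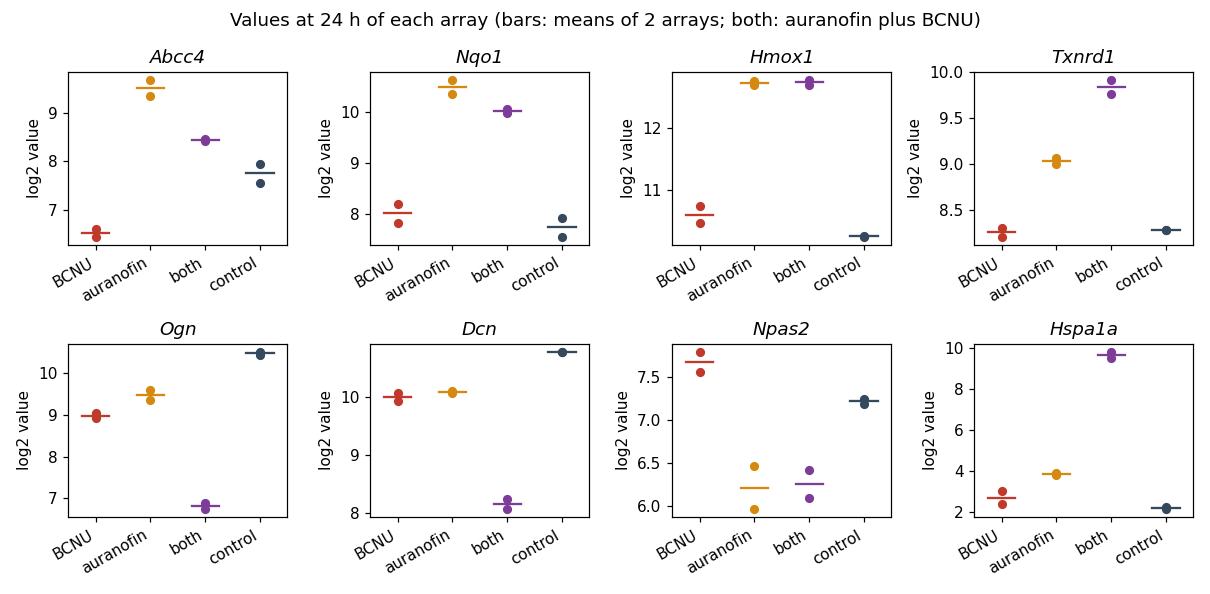
Log2 values at 24 h of 8 genes in each array of cells given BCNU, auranofin, both drugs or neither (control), with bars at the means of 2 arrays. Abcc4 is lowest with BCNU (6.59 and 6.44) and highest with auranofin (9.69 and 9.37), and Hspa1a reaches 9.78 and 9.48 with both drugs.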

How the data were processed

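RNA of 3T3-L1 adipocytes was hybridised to 32 Affymetrix Mouse Gene 2.1 ST arrays. The deposited tables held log2 values, for which the authors ran RMA (robust multi-array average), with background correction, quantile normalization over all arrays and a summary per probe set. The version of RMA is not given in the sources used here. Quantile normalization gives the arrays like distributions, so a shift shared by most genes would not be seen. The authors had removed transcripts without an approved symbol, which left 25293 probe sets. The platform annotation gave 1 symbol for 22030, several for 685 and none for 2578. Only the first kind was tested, and 465 genes held several probe sets, of which the median was kept, which gave 21506 genes. The number of arrays, 2 a group, limits the precision.

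Groups were taken from the labels. Tests used limma 3.58.1 in R 4.3.3, with 16 group means fitted to 32 arrays, 16 residual degrees of freedom (prior 3.50), Benjamini-Hochberg adjustment over all genes within each of 4 comparisons, and a call at adjusted p under 0.05 and a log2 difference over 0.5 in size. Each ± is the SE of a log2 difference, each group held 2 arrays, and every adjusted p is limma's. An exact permutation test of 2 against 2 arrays cannot go below p = 0.333 and was not used. The fit was tested on simulated data.

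Named genes were the 12 largest rises and falls against control with both BCNU arrays outside the control arrays, the 4 largest per direction in the other comparisons (for the difference of effects, outside at 8 or 24 h), up to 4 called members per list, and 20 fixed genes. Predicted and locus-style symbols were left out. The 31 gene lists held 840 genes, of which 711 were measured. The comparison, its members and the lists were chosen with earlier results of these data known. Alternatives covered the arrays in the fit, scaling, low levels, probe sets, replicate block, array weights, prior, call rule, reference arrays and leaving out each array. Promoters came from RefSeq.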

Additional observations from a re-analysis of the deposited data

Results flagged for a closer look

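The effect of BCNU differed between 24 h and 8 h, by the test of the difference itself, in 18 of the named genes. Over all genes this test called 0.214% higher and 0.274% lower. Mki67, Tuba1a, Kif11, Tlr8, Hmox1, Abcc4, Srxn1 and Slc7a11 were named because they ranked largest in this same test, so their part of the count was fixed in advance. On the log2 scale the effect at 24 h was higher for Mki67 (2.23), Tuba1a (1.73), Kif11 (1.56), Tlr8 (1.52), Fmo2 (1.43), Spata22 (1.48) and S100a4 (1.13), and lower for Hmox1 (-2.25), Abcc4 (-2.17), Srxn1 (-2.16), Slc7a11 (-1.81), Ogn (-0.84), Cdsn (-1.13), Gsr (-0.80), Txnrd1 (-1.27), Gclc (-1.72), Gclm (-1.34) and Nqo1 (-1.64). Adjusted p from limma lay between 3.31e-06 and 0.0401. The calls for Fmo2, Ogn and Cdsn were lost without any 1 of the 8 arrays.

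The 3263 probe sets without a single symbol took no part in the comparisons, and 7 of them were called against control when every probe set was fitted. Of the 7, 5 were higher and 2 lower in BCNU-treated cells. The one with symbols was shared by Igsf10 and Med12l and fell by 1.12 on the log2 scale (adjusted p = 0.0103); the 6 others, which had no symbol, differed by -0.76 to 1.32.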

How the results depend on the processing

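Fitted on the 8 arrays of 24 h, the calls numbered 0 for BCNU against control, 63 against auranofin and 1389 against co-treatment, and on the 16 arrays of 8 and 24 h the difference of effects had 16. The 4 compared arrays alone gave 0 calls against control. Over genes above the median level, 62 genes were called against control and 329 in the difference of effects, where fewer genes were tested. A trended, robust prior gave 279 in the difference of effects. With all 8 untreated and control arrays as the reference, chosen after seeing the data, 102 genes, of them 24 list genes, were called against control, and 509 in the difference of effects. The cause of these shifts was not tested. On leaving out 1 array the calls numbered 10 to 25 against control (8 list genes became 3 to 6), 34 to 63 in the difference of effects, 145 to 498 against auranofin and 1382 to 1658 against co-treatment. The count against auranofin was 145 without auranofin replicate 1, 212 without BCNU replicate 2 and 303 without BCNU replicate 1, while the counts against control and of the difference of effects fell by over 1.5 times whichever array was left out.

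The replicate block gave 39 calls against control, 111 in the difference of effects, 461 against auranofin and 1816 against co-treatment. Replicate numbers did not pair the arrays: the difference between replicates correlated at -0.01 between BCNU and control at 24 h and at -0.05 to 0.06 over 120 pairs of groups. The controls of 8 and 24 h together, run for the comparison with control alone, gave 61 calls. The other planned settings, run for all 4 comparisons, kept each count within 1.5 times. Without a minimum difference, 2582 genes passed against co-treatment. Of the 25 genes named as called against control, 21 stayed called with median-centred arrays, 23 with cyclic loess and 21 with the block. Signs turned only in genes that were not called. Mdm2 was -0.039 and Atf3 0.0087 with the controls of 8 and 24 h together, and Mdm2 -0.049 and Gss 0.027 with all 8. With 1 array left out Mdm2 ranged over -0.053 to 0.069, Atf3 over -0.24 to 0.20, Gss over -0.23 to 0.14, Txnrd1 over -0.074 to 0.019, Mgmt over -0.37 to 0.17 and Irs1 over -0.031 to 0.28.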

Other observations

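Several lists not described above also had 0 members called against control at 24 h. Among the clock genes the smallest adjusted p in limma's test was 0.0146, but that gene stayed short of the minimum difference of 0.5. The median log2 difference was -0.01 over 31 proteasome genes, 0.10 over 19 cytosolic ribosomal protein genes, -0.03 over 31 genes of TGF-beta and BMP signalling, 0.06 over 29 genes of cytokines and NF-kB, -0.01 over 21 hypoxia genes, 0.02 over 17 clock genes, 0.04 over 17 peroxiredoxin and thioredoxin genes and -0.09 over 11 metallothionein and zinc transport genes. The same held for the 14 leukocyte (0.14), 12 endothelial (-0.05) and 13 skeletal muscle markers (-0.000453).

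Gsta3, a glutathione transferase on the NRF2 list that was chosen after its values were seen, lay at 5.51 and 5.31 in BCNU-treated cells, against 4.38 and 4.55 in control cells. The difference of 0.94 ± 0.22 did not pass the threshold (adjusted p = 0.101). At 8 h it held 5.90 and 5.83 in BCNU-treated cells, against 5.29 and 4.56 in control cells, and the 2 effects differed by 0.01 ± 0.31 (adjusted p = 0.999).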
